A study of Mus musculus with 30 samples.

Results

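Havcr1, Lcn2, Spp1, Clu, Vcam1, Fga, Fgb and Fgg are genes used as markers of injury to the kidney tubule. These 8 genes were taken by name from the deposited expression tables of kidney, with 19468 rows, and pancreas, with 19685 rows, and were read in all 30 libraries. The study induced reprogramming in mice and sequenced messenger RNA from the kidney and the pancreas. All mice were C57BL/6 and drank doxycycline at 0.2 mg/ml for 7 days, so that no library here came from an animal without doxycycline. The i4F mice carry a cassette that doxycycline switches on and that encodes Oct4, whose gene is Pou5f1, together with Klf4, Sox2 and Myc. In kidney the 3 groups were i4F p53 KO (no functional Trp53), i4F Ink4a/Arf KO (no functional Cdkn2a products) and i4F with both loci wild type, with 5 mice in each. In pancreas the groups were p53 KO, i4F Ink4a/Arf KO and i4F, again with 5 mice in each, and the label of the first did not name the i4F cassette. The labels used here gave neither age nor sex, and the cells in which the cassette is active are not given in the sources used here.

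The tubule epithelium is quiescent in the healthy kidney and changes its transcripts quickly when its cells are damaged. Havcr1 encodes KIM-1, a surface receptor with which damaged proximal tubule cells take up dying cells. Lcn2 encodes NGAL, a small secreted protein that binds bacterial siderophores, and its protein in urine is a clinical marker of acute kidney injury. Spp1 encodes osteopontin, a secreted ligand of integrins and CD44, and Clu encodes clusterin, a secreted chaperone. Vcam1 encodes an adhesion receptor for leukocytes that is made by activated endothelium and by tubule cells that fail to repair. Fga, Fgb and Fgg encode the alpha, beta and gamma chains of fibrinogen, the clotting protein, which the liver makes and which tubule cells also transcribe after injury. Interleukin 6 acting through STAT3 raises fibrinogen transcription in liver as part of the acute phase response.

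Values are FPKM, fragments scaled to transcript length and to the total of mapped fragments, as the authors deposited them, so that levels of different genes can be compared per length. The sum of FPKM over genes ran between 466291 and 568390 in kidney libraries and between 523105 and 851440 in pancreas libraries, and read depth per library is not recoverable from these values. Trp53 averaged 7.04 ± 2.12 FPKM in i4F p53 KO kidneys, 15.9 ± 1.90 FPKM in i4F Ink4a/Arf KO kidneys and 16.4 ± 2.199 FPKM in i4F kidneys (SD, n = 5 each). It was lower in i4F p53 KO than in i4F kidneys (log2 fold change -1.14, SE 0.15, limma adjusted p = 0.00547). In pancreas Trp53 went against the label as deposited, with 15.6 ± 7.12 FPKM in the libraries labelled p53 KO and 3.40 ± 2.14 FPKM in i4F (log2 fold change 1.91, limma adjusted p = 3.69e-05), and a log2 fold change of 0.17 after the libraries were scaled to a common median (limma adjusted p = 0.328). Gene-level FPKM do not show which part of a gene is deleted, and these pancreas libraries are called the libraries labelled p53 KO throughout. Cdkn2a was at most 0.0662 FPKM in i4F Ink4a/Arf KO kidneys and at most 0.0782 FPKM in i4F kidneys, too low in both to check that label. The 16 proximal tubule markers, Lrp2 among them, were detected in the kidney libraries, with sums between 8218 and 86959 FPKM there and between 46.5 and 134 FPKM in pancreas. Acinar markers of the pancreas were also found in kidney libraries, and Clps exceeded 100 FPKM in i4F p53 KO replicates 2, 3 and 4 and in i4F replicate 5. Results without those 4 libraries are given beside the comparisons they touch.

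Across the 15 kidneys the injury markers differed widely in level. Median FPKM was 1426 for Spp1, 175 for Clu, 20.4 for Lcn2, 17.7 for Fgg, 14.4 for Fga, 4.33 for Vcam1, 3.05 for Fgb and 2.08 for Havcr1. The ranges of every pair of neighbours in this order overlapped over the 15 kidneys. In GENCODE M21 on GRCm38 all 8 are protein coding genes, with Havcr1 at chr11:46735080-46779578, Lcn2 at chr2:32384633-32388252, Spp1 at chr5:104435118-104441050, Clu at chr14:65968483-65981547 and Vcam1 at chr3:116109949-116129688. The highest kidney exceeded the lowest 1047-fold for Havcr1, 336-fold for Lcn2, 217-fold for Fgb and 6.23-fold for Vcam1. For every marker other than Vcam1 the highest kidney was i4F p53 KO replicate 1.

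**Figure D1:**
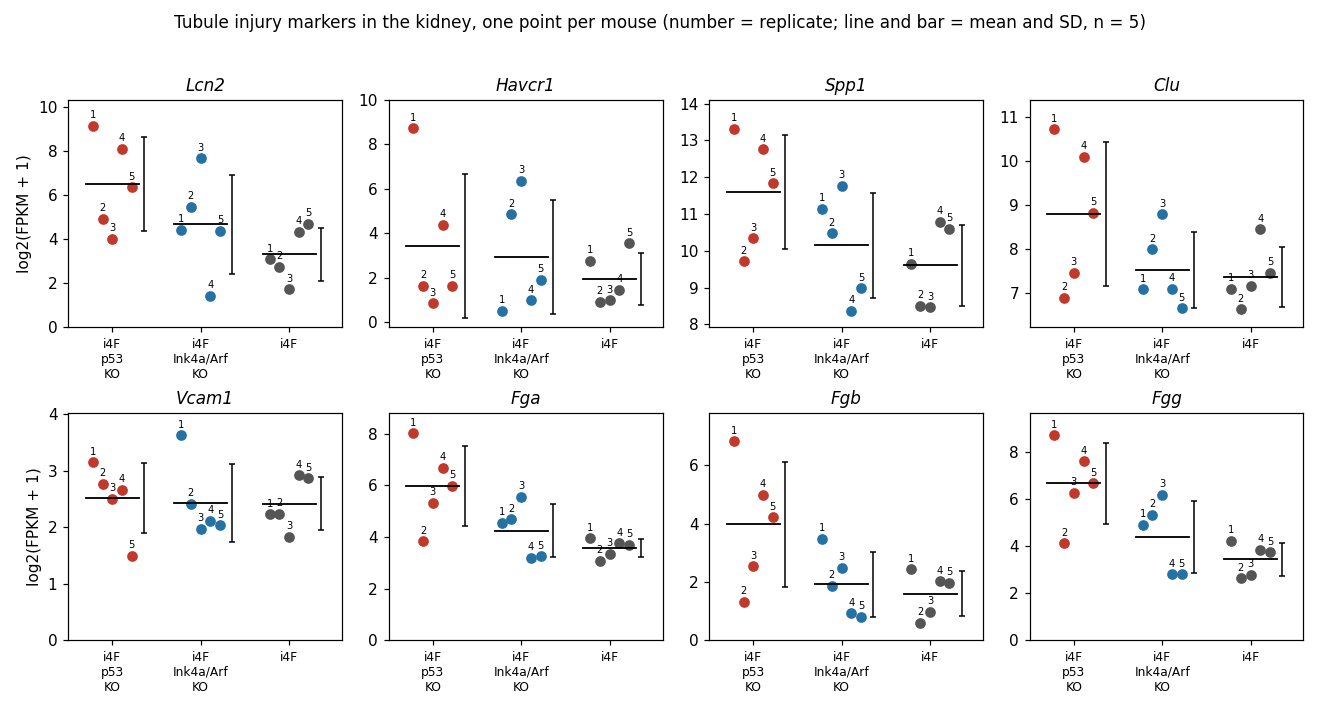
Level of the 8 injury markers as log2(FPKM + 1) in every kidney library, by genotype with i4F p53 KO at the left, i4F Ink4a/Arf KO next and i4F at the right; numbered points are mice, lines the group means and bars the SD (n = 5). The i4F p53 KO group holds the highest kidney, replicate 1, for every marker but Vcam1, and its replicate 2 lies within the i4F range for Fga, Fgb and Fgg.

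Havcr1, the phagocytic receptor, was high in a few kidneys and low in most. It measured 422, 2.08, 0.791, 19.9 and 2.07 FPKM in i4F p53 KO replicates 1 to 5, 0.403, 27.9, 80.9, 0.970 and 2.75 FPKM in i4F Ink4a/Arf KO replicates, and 5.72, 0.872, 0.953, 1.72 and 10.7 FPKM in i4F replicates. The 3 groups overlapped, i4F p53 KO replicates 1 and 4 lay above the highest i4F kidney, and the mean of 89.5 ± 186 FPKM in i4F p53 KO kidneys (SD, n = 5) rested on replicate 1. Over i4F, the log2 fold change of i4F p53 KO was 1.52 (SE 1.43, 95% interval -1.53 to 4.56, limma adjusted p = 0.684), and without i4F p53 KO replicate 1 it was 0.20. Fold changes here are on the scale of log2(FPKM + 1), which understates changes of low genes, and adjusted p-values cover all 12431 genes tested in kidney.

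Vcam1, the leukocyte adhesion receptor, stood apart from the other markers. It measured 7.85, 5.82, 4.68, 5.33 and 1.82 FPKM in i4F p53 KO kidneys, 11.3, 4.33, 2.91, 3.33 and 3.09 FPKM in i4F Ink4a/Arf KO kidneys and 3.68, 3.71, 2.56, 6.56 and 6.28 FPKM in i4F kidneys. All 3 groups overlapped over most of their range. Between i4F p53 KO and i4F the log2 fold change was 0.10, with a 95% interval of -0.64 to 0.84 (limma adjusted p = 0.931). The female kidneys, by Xist, were i4F Ink4a/Arf KO replicate 1 and i4F replicates 4 and 5, and these held 11.3, 6.56 and 6.28 FPKM of Vcam1. No i4F p53 KO kidney exceeded 0.0303 FPKM of Xist, so sex and genotype are partly mixed in the kidney comparisons. With Xist as a covariate the log2 fold change of Vcam1 between i4F p53 KO and i4F was 0.53 and did not pass in limma.

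Lcn2, the siderophore-binding protein, was among the most variable markers. It measured 561, 29.2, 15.2, 268 and 80.3 FPKM in i4F p53 KO kidneys, 20.4, 42.7, 199, 1.67 and 19.6 FPKM in i4F Ink4a/Arf KO kidneys and 7.43, 5.61, 2.30, 18.9 and 24.8 FPKM in i4F kidneys. In the i4F p53 KO group 4 of 5 kidneys lay above the highest i4F kidney, and replicate 3 lay inside the i4F range. The log2 fold change of i4F p53 KO over i4F was 3.19 (SE 1.10, limma adjusted p = 0.221). Neutrophils also store NGAL in their granules. Of 14 neutrophil markers, 5 reached the 1 FPKM in 5 kidneys needed for the test, and 10 stayed below 1 FPKM in every i4F kidney. In limma 4 of the 5 were higher in i4F p53 KO than in i4F kidneys, against 0.0885% of all genes. S100a8, at 7.04 FPKM or more in every kidney, had a log2 fold change of 2.43 (limma adjusted p = 0.0128). Retnlg stood at 2.18 (limma adjusted p = 0.00628) but averaged 0.889 FPKM in i4F kidneys. Stfa2l1, also called, averaged 0.201 FPKM in i4F and 1.89 FPKM in i4F p53 KO kidneys. Genes so near the limit can enter the test through the group where they are high. The count of 4 of the 5 and the value of Retnlg are therefore descriptions. The neutrophil markers summed to between 61.7 and 177 FPKM in i4F p53 KO kidneys, between 17.2 and 60.3 FPKM in i4F Ink4a/Arf KO kidneys and between 14.4 and 26.3 FPKM in i4F kidneys, where Elane was at 0 in all 5. Their part in the Lcn2 level was not tested. In bulk tissue, fewer cells of a type and less RNA per cell cannot be told apart, nor can more cells and more RNA per cell.

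Spp1 and Clu, the most abundant of the markers, were highest in i4F p53 KO replicates 1 and 4, as Lcn2 was. Spp1 measured 10199, 839, 1297, 6936 and 3661 FPKM in i4F p53 KO kidneys, 2261, 1426, 3486, 330.3 and 505 FPKM in i4F Ink4a/Arf KO kidneys and 805, 362, 351, 1774 and 1546 FPKM in i4F kidneys. Replicates 1, 4 and 5 of i4F p53 KO lay above all i4F kidneys and the others lay inside the i4F range. Clu measured 1688, 118, 175, 1092 and 454 FPKM in i4F p53 KO kidneys, 135, 254, 442, 136 and 100.1 FPKM in i4F Ink4a/Arf KO kidneys and 136, 98.4, 143, 350 and 175 FPKM in i4F kidneys. The same 3 i4F p53 KO kidneys were above the i4F range for Clu. For i4F p53 KO over i4F it was 1.99 (SE 0.79) for Spp1 and 1.44 (SE 0.66) for Clu on the log2 scale, with limma adjusted p-values of 0.293 and 0.368.

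The fibrinogen chains lie side by side. In the GENCODE M21 annotation of mouse build GRCm38 (mm10), Fgg is at chr3:83007724-83015049 on the plus strand, Fga at chr3:83026076-83033627 on the plus strand and Fgb at chr3:83040141-83049863 on the minus strand, a span of 42.1 kb. Because the 3 chains moved together across kidneys, the 250 bases before each start site are shown, from RefSeq on GRCm38.p6, read 5′ to 3′ along the strand of the gene. They cover chr3:83025903-83026152 (plus strand) for Fga, chr3:83049864-83050113 (minus strand) for Fgb and chr3:83007474-83007723 (plus strand) for Fgg. The RefSeq start site of Fga lies inside the GENCODE gene given above, so the end of its window overlaps that gene. The windows of Fgb and Fgg do not overlap theirs. Capitals mark a half-site of HNF1, a factor of liver and tubule cells (GTTAAT, read as ATTAAC on the other strand), a STAT palindrome (TTCNNNGAA) and the type II interleukin 6 response element (CTGGGA).

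Fga: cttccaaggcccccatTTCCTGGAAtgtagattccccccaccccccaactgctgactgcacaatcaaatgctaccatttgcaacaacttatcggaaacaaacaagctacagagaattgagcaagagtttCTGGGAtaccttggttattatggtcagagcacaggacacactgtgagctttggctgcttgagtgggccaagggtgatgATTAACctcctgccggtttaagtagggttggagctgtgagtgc
Fgb: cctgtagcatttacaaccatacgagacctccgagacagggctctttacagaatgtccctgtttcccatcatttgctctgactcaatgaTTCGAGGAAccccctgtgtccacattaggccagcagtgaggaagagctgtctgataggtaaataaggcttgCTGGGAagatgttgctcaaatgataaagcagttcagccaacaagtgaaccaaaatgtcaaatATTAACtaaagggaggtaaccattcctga
Fgg: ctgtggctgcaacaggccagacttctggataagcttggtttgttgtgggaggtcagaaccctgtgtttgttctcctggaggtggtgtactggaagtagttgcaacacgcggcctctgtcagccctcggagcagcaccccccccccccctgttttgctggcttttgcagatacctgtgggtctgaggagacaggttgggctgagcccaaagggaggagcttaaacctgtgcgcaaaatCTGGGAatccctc

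Both strands were searched, and positions count back from -1 at the base before the RefSeq start site. Fga held ATTAAC at -43 to -38, the STAT palindrome at -234 to -226 and CTGGGA at -121 to -116. Fgb held ATTAAC at -29 to -24, the STAT palindrome at -162 to -154 and CTGGGA at -91 to -86, and Fgg held only CTGGGA, at -13 to -8. Among all 32851 promoter windows of this length, 6.43% held GTTAAT, 7.02% held TTCNNNGAA and 27% held CTGGGA on either strand, so that CTGGGA is a common hexamer. A match is a description of the letters and not evidence of binding. Promoter entries matched 6 of the 8 markers, and those for Clu and Vcam1 are not shown.

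In i4F p53 KO kidneys Fgg, Fga and Fgb lay above the highest i4F kidney in 4 of 5 mice, for Fgb by little in replicate 3. Fgg measured 417, 16.3, 76.2, 193 and 100.1 FPKM in i4F p53 KO kidneys, 28.9, 39.1, 71.4, 5.95 and 5.99 FPKM in i4F Ink4a/Arf KO kidneys and 17.7, 5.23, 5.86, 13.2 and 12.3 FPKM in i4F kidneys. Fga measured 258, 13.2, 39.2, 102 and 62.5 FPKM in i4F p53 KO kidneys, 22.4, 24.6, 46.4, 8.10 and 8.54 FPKM in i4F Ink4a/Arf KO kidneys and 14.4, 7.501, 9.22, 12.5 and 12.1 FPKM in i4F kidneys. For both genes replicate 2 of i4F p53 KO was the one that lay inside the i4F range, and the first 3 i4F Ink4a/Arf KO kidneys lay above it. Fgb, the chain with the lowest level, measured 112, 1.48, 4.80, 30.6 and 17.5 FPKM in i4F p53 KO kidneys, 10.2, 2.62, 4.59, 0.902 and 0.750 FPKM in i4F Ink4a/Arf KO kidneys and 4.41, 0.517, 0.953, 3.05 and 2.94 FPKM in i4F kidneys. Replicate 2 of i4F p53 KO was again the one inside the i4F range. Its replicate 3, at 4.80 FPKM, lay just above i4F replicate 1 at 4.41 FPKM and below i4F Ink4a/Arf KO replicate 1 at 10.2 FPKM. For i4F p53 KO over i4F the log2 fold change was 3.23 for Fgg (SE 0.80, limma adjusted p = 0.1001), 2.40 for Fga (SE 0.63, limma adjusted p = 0.105) and 2.37 for Fgb (SE 0.84, limma adjusted p = 0.236).

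The chains differed in level, and their ratios varied less than the chains did. The ratio of Fga to Fgg FPKM ran between 0.514 and 1.57 over the 15 kidneys, with a median of 0.810, and that of Fgb to Fgg between 0.0629 and 0.352, with a median of 0.158. The Fga to Fgg ratio was between 0.514 and 0.810 in i4F p53 KO kidneys and between 0.816 and 1.57 in i4F kidneys, groups that did not overlap. That ratio was examined after the values were seen and was not tested. Hepatocyte markers, which would accompany fibrinogen in liver RNA, summed to between 49.99 and 137 FPKM in i4F p53 KO kidneys and between 80.4 and 172 FPKM in i4F kidneys. Alb, the main hepatocyte transcript, had a median of 2.91 FPKM over the kidneys and a log2 fold change of -0.71 (limma adjusted p = 0.381), and Tat, Cps1, Mup3 and Cyp2c29 had medians of 0. Other genes of the hepatocyte list were at levels like those of the fibrinogen chains, with kidney medians of 46.0 FPKM for Ttr, 19.9 FPKM for Apoc3, 17.0 FPKM for Apob and 9.02 FPKM for Serpina1a.

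Taking the 8 markers as a list, none passed an adjusted p under 0.05 in limma between i4F p53 KO and i4F kidneys, where 32 of 12431 genes, 0.257%, did. All 8 log2 fold changes were positive, with a median of 2.18 against 0.03 for all genes tested. At an unadjusted p under 0.05, 6 of 8 were higher, all but Havcr1 and Vcam1, against 5.69% of all genes. Without i4F p53 KO replicate 2, Fgg passed with a log2 fold change of 3.87 (limma adjusted p = 0.0189) and Fga with 2.93 (limma adjusted p = 0.0192), while 166 genes were called in all and 0.371% of genes were higher. Without the 4 libraries above 100 FPKM of Clps, only replicates 1 and 5 were left of i4F p53 KO. Fga, Fgb and Fgg then passed, against 0.979% of genes higher. With array weights, which give variable libraries less weight, Lcn2, Spp1, Clu, Fga, Fgb and Fgg passed, against 8.97% of genes.

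**Figure D2:**
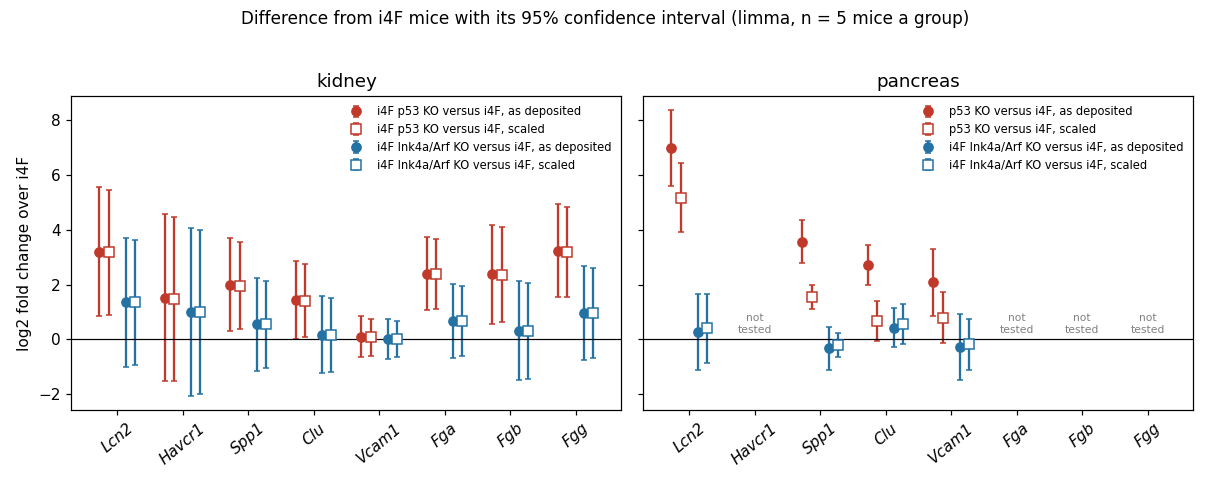
Log2 fold changes over i4F on the log2(FPKM + 1) scale in kidney (left) and pancreas (right), with p53 KO in red and i4F Ink4a/Arf KO in blue; points are limma estimates as deposited, open squares those after scaling of the libraries, and bars 95% intervals. In kidney the estimates for i4F p53 KO lie between 0.10 and 3.23, and in pancreas Lcn2 of the libraries labelled p53 KO stands at 6.97 as deposited and 5.16 after scaling, with 4 markers not tested there.

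All 8 markers also had positive fold changes in i4F p53 KO over i4F Ink4a/Arf KO kidneys. None of the 8 markers passed in limma, where 0.265% of all genes did, and 3 of 8 (Fga, Fgb and Fgg) were higher at an unadjusted p under 0.05, against 10.6% of all genes. The log2 fold change was 2.27 for Fgg (SE 0.80, adjusted p = 0.179), 2.06 for Fgb (SE 0.84, adjusted p = 0.228) and 1.84 for Lcn2 (SE 1.10, adjusted p = 0.390) in limma. Fga stood at 1.72, Spp1 at 1.44, Clu at 1.27, Havcr1 at 0.52 and Vcam1 at 0.08, and the median of the 8 was 1.58 against 0.03 for all genes. Without i4F p53 KO replicate 2, Fga passed with 2.26 (limma adjusted p = 0.0445) and Fgg with 2.91 (limma adjusted p = 0.0461), while 326 genes were called in all and 1.04% of genes were higher. Without the 4 libraries above 100 FPKM of Clps, which left only replicates 1 and 5 of i4F p53 KO, Fga and Fgb passed, against 4.41% of genes higher. With array weights Lcn2, Spp1, Clu, Fga, Fgb and Fgg passed, against 19.5% of genes.

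Between i4F Ink4a/Arf KO and i4F kidneys no marker passed, and neither did any other gene, 0% of 12431 in limma. None of the 8 markers reached an unadjusted p under 0.05, which 398 genes did. The log2 fold change was 1.35 for Lcn2, 1.00 for Havcr1, 0.96 for Fgg, 0.68 for Fga, 0.55 for Spp1, 0.31 for Fgb, 0.16 for Clu and 0.02 for Vcam1, all with limma adjusted p-values of at least 0.997. Lcn2 averaged 56.7 ± 81.1 FPKM in i4F Ink4a/Arf KO and 11.8 ± 9.58 FPKM in i4F kidneys (SD, n = 5 each), a difference smaller than the spread among i4F Ink4a/Arf KO mice. The comparisons with i4F share the i4F libraries, so their values are not independent of each other.

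The level of Pou5f1, a gene of the cassette, also varied among kidneys. Pou5f1 measured 15.7, 0.650, 3.48, 8.86 and 4.88 FPKM in i4F p53 KO kidneys, 0.492, 2.55, 4.87, 0 and 1.05 FPKM in i4F Ink4a/Arf KO kidneys and 0.151, 0, 0.0417, 5.40 and 1.25 FPKM in i4F kidneys. The kidney highest in Pou5f1 was i4F p53 KO replicate 1, the highest in 7 of the 8 injury markers, and i4F p53 KO replicate 2, low in them, had the lowest Pou5f1 of its group. Within i4F, replicate 4 with the most Pou5f1 had the most Spp1, Clu and Vcam1, replicate 5 the most Havcr1 and Lcn2, and replicate 1, with 0.151 FPKM of Pou5f1, the most Fga, Fgb and Fgg. Transcripts of the cassette and of the endogenous Pou5f1 locus cannot be told apart in gene-level FPKM.

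Across the 15 kidneys, 7 of 8 markers rose with Pou5f1 in a limma fit of log2(FPKM + 1) on log2(Pou5f1 FPKM + 1), against 13.7% of the 12430 genes tested. Each unit of log2 Pou5f1 came with 1.505 log2 units of Lcn2 (SE 0.20, adjusted p = 0.000664), 1.25 of Fgg (SE 0.19, adjusted p = 0.00105) and 1.24 of Havcr1 (SE 0.34, adjusted p = 0.0219) in limma. Lcn2, Fgg and Havcr1 ranked 5, 10 and 11 of all genes by slope, and 33, 62 and 1217 by limma p. The limma slope was 1.05 for Spp1 (SE 0.14, adjusted p = 0.000561), 1.04 for Fgb (SE 0.21, adjusted p = 0.00525), 0.96 for Fga (SE 0.14, adjusted p = 0.00104) and 0.87 for Clu (SE 0.10, adjusted p = 0.000202). Vcam1 had a slope of 0.08 with a 95% interval of -0.14 to 0.31 (limma adjusted p = 0.618). Without the 4 libraries above 100 FPKM of Clps the same 7 markers passed, against 9.5% of all genes. Of the neutrophil markers 4 of 5 also rose along Pou5f1, a count that is a description under the filter limit given above for these genes. S100a8 had a slope of 0.69 (limma adjusted p = 0.00888). With genotype as a term 0 of 5 rose, and the part of neutrophil markers in the Lcn2 slope was not tested. The median slope of the 8 markers was 1.05, against 0.04 for all genes.

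The relation was also computed as correlations on the same log scale, 1 for each of the 8 markers, with p-values from permutation tests of 100000 resamples, two-sided, and adjusted over all 12430 genes. Pearson's r with Pou5f1 was 0.916 for Clu and 0.893 for Spp1, each at the smallest p that these permutations can give, 1e-05 (adjusted p = 0.00178 for both). It was 0.882 for Lcn2 (permutation p = 3e-05, adjusted p = 0.00272), 0.867 for Fga (permutation p = 7e-05, adjusted p = 0.00410) and 0.864 for Fgg (permutation p = 9e-05, adjusted p = 0.00464). Fgb had an r of 0.786 (permutation p = 0.00033, adjusted p = 0.00860), Havcr1 0.681 (permutation p = 0.0042, adjusted p = 0.0334) and Vcam1 0.192 (permutation p = 0.493, adjusted p = 0.652). Spearman's rho was 0.872 for Spp1, 0.858 for Clu, 0.804 for Fgg, 0.801 for Lcn2, 0.799 for Fga, 0.747 for Fgb, 0.550 for Havcr1 and 0.282 for Vcam1. The adjusted permutation p of rho lay between 0.00497 and 0.0258 for all but Havcr1 (0.118) and Vcam1 (0.449). The median r over all genes was 0.241.

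**Figure D3:**
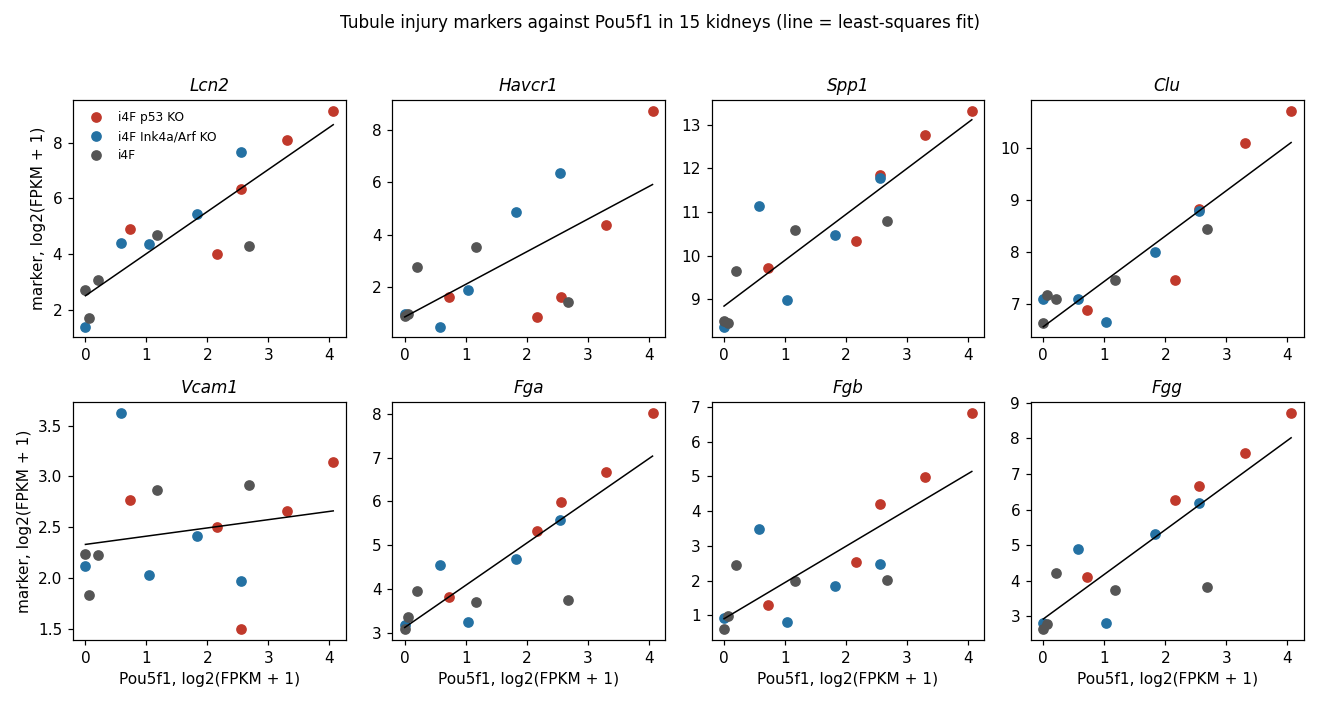
Level of each injury marker against Pou5f1 in the 15 kidneys, both as log2(FPKM + 1), with 1 point per mouse coloured by genotype and the least-squares line. Clu, Spp1 and Lcn2 lie along the line with r of 0.916, 0.893 and 0.882, and Vcam1 is scattered about it with r of 0.192.

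Leaving out the 2 kidneys farthest from the median of Pou5f1, i4F p53 KO replicates 1 and 4, reduced most of these correlations. Over the other 13 kidneys r was 0.861 for Clu, 0.801 for Spp1, 0.779 for Lcn2, 0.738 for Fga and for Fgg, and 0.553 for Fgb, with unadjusted permutation p-values between 0.00016 for Clu and 0.0496 for Fgb. For Havcr1 it was 0.423 (permutation p = 0.152), so that its relation over all kidneys did not hold without those 2. In limma, Clu alone of the markers passed the adjusted threshold over these 13 kidneys, where 12 genes, 0.098%, passed. Without i4F p53 KO replicate 1 alone, 5 of 8 markers passed, against 2.08% of all genes, with Havcr1 at a slope of 0.80 (limma adjusted p = 0.205) and Fgb at 0.78 (limma adjusted p = 0.0710). With genotype as a term 5 of 8 passed, against 4.3% of all genes, with slopes of 1.40 for Lcn2, 1.01 for Spp1, 0.96 for Fgg, 0.88 for Clu and 0.76 for Fga. Havcr1 then had a slope of 1.51 (limma adjusted p = 0.0560) and Fgb 0.85 (limma adjusted p = 0.0727). Among the 10 kidneys with intact Trp53, r was 0.887 for Clu, 0.820 for Lcn2, 0.770 for Spp1, 0.636 for Havcr1, 0.634 for Fgg, 0.625 for Fga, 0.363 for Fgb and 0.170 for Vcam1. The unadjusted permutation p for Havcr1 there was 0.045, and in limma Clu alone of the markers passed, against 1.02% of all genes.

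The markers' closest companions across the 15 kidneys were ranked by Pearson's r on the log scale over all tested genes, as a description that shares libraries and depth. Fga and Fgg had each other as nearest gene, with r of 0.988, and Fgb followed Fga with r of 0.941. Lcn2 was closest to Fam38a (0.979), the mechanosensitive channel now named Piezo1, Gpr56 (0.958) and Agrn (0.952), the matrix protein agrin. Spp1 was closest to Lgals3 (0.969), which encodes galectin-3, and Clu to the tight junction gene Cldn4 (0.961). Fgb was closest to Srxn1 (0.961), the gene of an antioxidant enzyme, and Fgg, after Fga, to the tubule sulfate transporter gene Slc13a1 (0.941). Vcam1 was closest to H2-M3 (0.961), Tnfrsf1b (0.932) and Cd52 (0.925), genes of leukocytes and immune recognition, and its r with the other markers was between 0.152 and 0.372. Lcn2 and Spp1 correlated at 0.927, and Havcr1 and Lcn2 at 0.798.

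Other genes of tubule injury and repair had a smaller median fold change between i4F p53 KO and i4F kidneys than the markers, 0.50 against 2.18. The markers and the list were chosen with earlier results of these data known, so this difference is a description. Of 43 listed, 37 were tested between i4F p53 KO and i4F kidneys, 35 had a positive log2 fold change with a median of 0.50, and 1 passed, complement gene C3. C3 averaged 91.2 ± 58.8 FPKM in i4F p53 KO and 8.26 ± 4.74 FPKM in i4F kidneys (SD, n = 5 each), a log2 fold change of 3.19 (SE 0.56, limma adjusted p = 0.0262). Along Pou5f1, 25 of the 37 rose in limma, or 15 with genotype as a term, against 13.7% and 4.3% of all genes. Among them were the keratin genes Krt20 with a slope of 1.09, Krt18 with 0.65 and Krt8 with 0.45. Of the acute phase genes 1 of 13 passed between these genotypes, again C3, against 0.257% of all genes. Of the interleukin 6 and STAT3 genes 0 of 11 passed in limma. At an unadjusted p under 0.05, 7 of 11 were higher, against 5.69% of all genes. Bcl3 stood at a log2 fold change of 1.41 (limma adjusted p = 0.0586) and Stat3 at 0.97 (limma adjusted p = 0.105). Along Pou5f1, 8 of 11 interleukin 6 and STAT3 genes rose, with slopes of 0.62 for Socs3, the feedback inhibitor, and 0.40 for Stat3, and 3 of 13 acute phase genes did. With genotype as a term 2 of 11 and 0 of 13 rose in limma, and Socs3 did not pass (limma adjusted p = 0.0732).

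Clotting genes other than fibrinogen had fold changes near 0. Of 13 coagulation and fibrinolysis genes tested, 0 passed in limma between i4F p53 KO and i4F kidneys, none was higher at an unadjusted p under 0.05, and the median log2 fold change was -0.16. Of 13 receptors and partners of the markers, 0 passed, with a median of -0.05. At an unadjusted p under 0.05, 2 of 13 were higher, against 5.69% of all genes. Along Pou5f1 1 of 13 rose, the osteopontin receptor Cd44 (slope 0.45), against 13.7% of all genes. Proximal tubule genes, which mark the cells that make KIM-1, had a median log2 fold change of -0.35, with 0 of 16 passing in limma. At an unadjusted p under 0.05, 6 of 16 were lower. Of all 12431 genes, 1641 reached that p, 707 of them higher and the rest lower. Their summed level was between 8218 and 42963 FPKM in i4F p53 KO kidneys and between 23264 and 86959 FPKM in i4F kidneys. Along Pou5f1, 4 of 16 fell in limma, where 540 of all 12430 genes did, among them Kap with a slope of -0.73 and Miox with -0.40. With genotype as a term 0 of 16 did. The part of tubule cell number in the marker levels was not tested.

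In pancreas the same genes split by level. Median FPKM over the 15 libraries was 482 for Clu, 47.6 for Spp1, 5.66 for Lcn2 and 0.656 for Vcam1, while Havcr1, Fga, Fgb and Fgg had medians of at most 0.0264. Havcr1 and Fgb did not exceed 0.212 FPKM in any pancreas and Fgg did not exceed 0.331 FPKM, so that 4 of the 8 markers passed the filter of 1 FPKM in 5 libraries. Set beside the kidney tables without a test, Fgg at a kidney median of 17.7 FPKM and Havcr1 at 2.08 FPKM had no counterpart in pancreas. Every kidney lay above every pancreas for Havcr1, Fga, Fgb and Fgg. The share of all genes that separated the tissues in this way was not computed, so the separation only describes these 4 genes.

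Lcn2, Spp1 and Clu were higher in every library labelled p53 KO than in any i4F pancreas. Lcn2 measured 1490, 778, 326, 149 and 345 FPKM in the libraries labelled p53 KO, 18.6, 1.25, 3.71, 3.45 and 0.738 FPKM in i4F Ink4a/Arf KO and 1.19, 0.868, 1.79, 7.37 and 5.66 FPKM in i4F. Spp1 measured 559, 677, 467, 188 and 1169 FPKM in the libraries labelled p53 KO, 33.5, 36.2, 32.5, 33.8 and 37.4 FPKM in i4F Ink4a/Arf KO and 31.1, 25.4, 47.6, 64.0 and 65.3 FPKM in i4F. For both secreted proteins the lowest library labelled p53 KO stood above every other pancreas. Clu measured 3487, 2302, 1827, 1209 and 2807 FPKM in the libraries labelled p53 KO, 207, 735, 697, 482 and 367 FPKM in i4F Ink4a/Arf KO and 319, 309, 323, 296 and 442 FPKM in i4F. Vcam1 measured 29.2, 13.6, 1.80, 1.53 and 6.36 FPKM in the libraries labelled p53 KO, 1.19, 0.289, 0.235, 0.629 and 0.200 FPKM in i4F Ink4a/Arf KO and 0.199, 0.209, 0.288, 4.64 and 0.656 FPKM in i4F. Vcam1 overlapped between the libraries labelled p53 KO and i4F through i4F replicate 4, and groups did not overlap for Lcn2, Spp1 and Clu, as for 73% of all genes in the same direction.

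**Figure D4:**
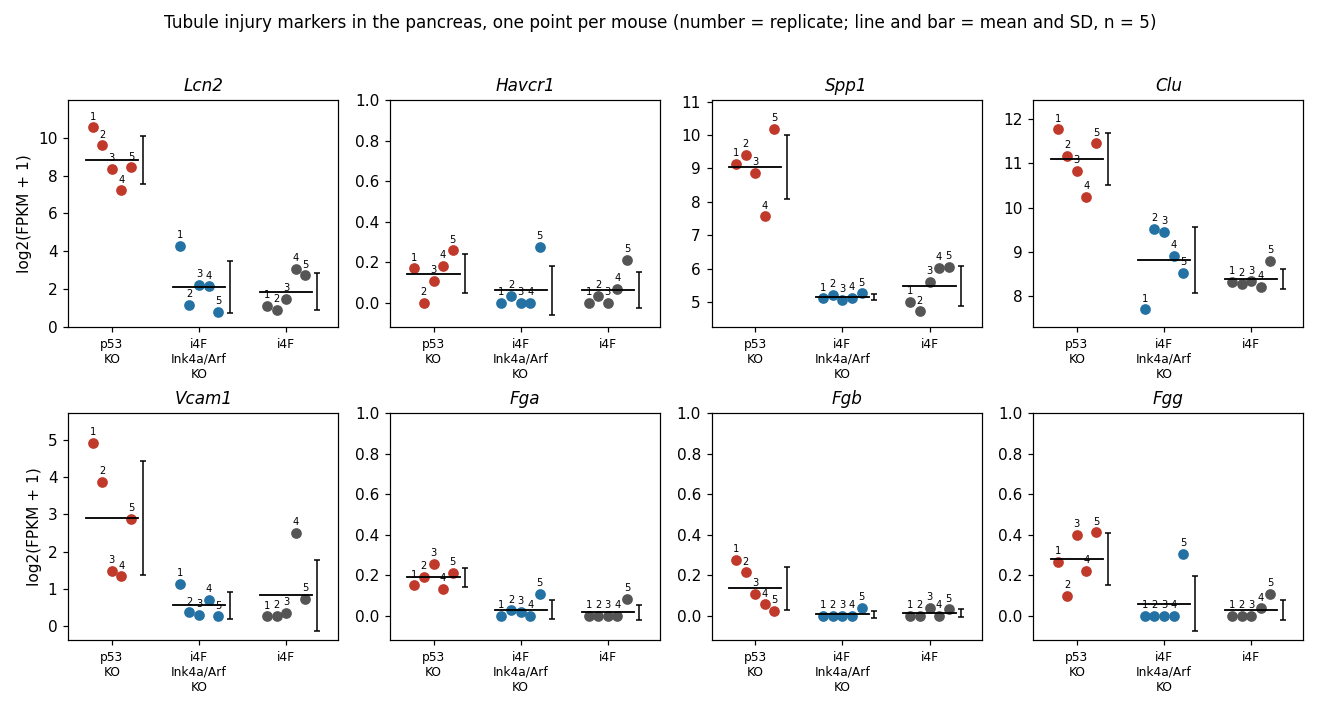
Level of the 8 injury markers as log2(FPKM + 1) in every pancreas library, by group with the libraries labelled p53 KO at the left, i4F Ink4a/Arf KO next and i4F at the right; numbered points are mice, lines the group means and bars the SD (n = 5). Lcn2, Spp1 and Clu in the libraries labelled p53 KO lie above every other library, and Havcr1, Fga, Fgb and Fgg stay at or below 0.331 FPKM.

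Lcn2, Spp1, Clu and Vcam1 rose as deposited in the libraries labelled p53 KO relative to i4F in limma, where 91.2% of the 10781 genes tested in pancreas did and the median gene stood at 1.58 on the log2 scale. The log2 fold change was 6.97 for Lcn2 (SE 0.65, adjusted p = 1.57e-07), 3.55 for Spp1 (SE 0.37, adjusted p = 3.85e-07), 2.71 for Clu (SE 0.34, adjusted p = 2.12e-06) and 2.07 for Vcam1 (SE 0.58, adjusted p = 0.00249) in limma. Vcam1 reached 1 FPKM in all 5 libraries labelled p53 KO but in 2 of the other 10, so that it passed the filter through the group where it is high, and its value is a description. Because most genes shifted together, the libraries were also scaled by the median of ratios to a common reference, after which 34.9% of genes were higher. Of the genes called, 9827 of 10070 were higher as deposited and 3760 of 7119 after scaling. Lcn2 then stood at 5.16 (SE 0.59, limma adjusted p = 4.17e-06) and Spp1 at 1.53 (SE 0.20, limma adjusted p = 1.56e-05). After scaling Clu stood at 0.67, with a 95% interval of -0.04 to 1.39 (limma adjusted p = 0.0888), and Vcam1 at 0.79 (SE 0.44, limma adjusted p = 0.125). Scaled Lcn2 lay between 92.5 and 379 in the libraries labelled p53 KO and between 1.88 and 7.35 in i4F, and scaled Clu between 692 and 926 in the libraries labelled p53 KO and between 295 and 669 in i4F.

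Against i4F Ink4a/Arf KO the libraries labelled p53 KO gave like values. Lcn2, Spp1, Clu and, with the same limit, Vcam1 rose in limma as deposited, against 91.7% of all genes, with log2 fold changes of 6.70 for Lcn2, 3.88 for Spp1, 2.35 for Vcam1 and 2.27 for Clu and a median gene at 1.66. Groups did not overlap for any of them, as for 85.6% of all genes in the same direction. After scaling, Lcn2 stood at 4.75 (limma adjusted p = 8.73e-06) and Spp1 at 1.73 (limma adjusted p = 5.69e-06), Clu at 0.11 (limma adjusted p = 0.785) and Vcam1 at 0.97 (limma adjusted p = 0.0617), where 34.7% of genes were higher, 3744 of 7299 called. Between i4F Ink4a/Arf KO and i4F pancreas none of the 4 markers passed in limma, nor did any gene (0%), with 36 genes at an unadjusted p under 0.05. Spp1 averaged 34.7 ± 2.02 FPKM in i4F Ink4a/Arf KO and 46.7 ± 18.3 FPKM in i4F pancreas (SD, n = 5 each). Xist stood at 5.44, 7.16 and 9.15 FPKM in i4F pancreas replicates 3, 4 and 5 and at 4.51 FPKM in i4F Ink4a/Arf KO replicate 1. It was at most 0.856 FPKM in the libraries labelled p53 KO, so sex and group are partly mixed in pancreas too.

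Cell type markers of the pancreas differed beside the injury markers, as deposited and in part after scaling. Summed macrophage markers lay between 567 and 2985 FPKM in the libraries labelled p53 KO and between 40.2 and 422 FPKM in i4F, and neutrophil markers between 35.4 and 5076 FPKM in the libraries labelled p53 KO and between 2.31 and 264 FPKM in i4F. Duct markers, from cells that also make Spp1, lay between 429 and 1535 FPKM in the libraries labelled p53 KO and between 68.5 and 109 FPKM in i4F, and acinar markers between 5381 and 388962 FPKM in the libraries labelled p53 KO and between 335241 and 498731 FPKM in i4F. After scaling, 7119 of all 10781 genes were called in limma between the libraries labelled p53 KO and i4F, and 3760 of them were higher. In that fit 9 of 9 macrophage markers, 3 of 8 neutrophil markers and 3 of 6 duct markers were higher. Lower were 2 duct and 11 of 18 acinar markers. The neutrophil and duct counts were not far from the shares of all genes. Pou5f1 was between 24.6 and 98.2 FPKM in the libraries labelled p53 KO and at most 1.14 FPKM in i4F. Of the other tubule injury and repair genes, 39 of 39 tested rose in the libraries labelled p53 KO over i4F in limma. After scaling 32 did, against 91.2% of all genes as deposited and 34.9% scaled. Their scaled median was 2.32, against the scaled value of 5.16 for Lcn2. Of the 43 listed, 10 stayed below 1 FPKM in every i4F pancreas and 16 in every i4F Ink4a/Arf KO pancreas. In the libraries labelled p53 KO 1 did. Genes of the list could thus pass the filter through the group where they are high, and these counts are a description. Of 12 acute phase genes 11 rose as deposited, a share near that of all genes, and 8 after scaling, and the fibrinogen chains stayed at or below 0.331 FPKM. The part of cell composition in the pancreas values was not tested.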

How the data were processed

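Poly(A) RNA of kidney and pancreas from 15 mice per tissue, 30 samples in all, was sequenced, and the authors deposited FPKM per gene in 1 table per tissue. Per the submitters' processing notes, FastQC, TopHat2 2.0.10, Bowtie 1.0.0, SAMtools 0.1.19, Cufflinks 2.2.1 and the mm10 build were used, with no roles or settings given, and any scaling between libraries is not given in the sources used here. FPKM keep no read counts, so no count test was run, and the depth behind a value is unknown. The 5 mice of a group are the replicates.

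Each tissue was fitted alone with limma 3.58.1 (R 4.3.3, lmFit and eBayes with trend) on log2(FPKM + 1) over its 15 libraries. The test covered genes that reached 1 FPKM in 5 or more libraries (12431 in kidney, 10781 in pancreas) and was two-sided, with Benjamini-Hochberg adjustment over all of them and a threshold of 0.05. The script was tested on simulated data. Correlations used 100000 permutations (scipy 1.17.1). Alternatives were other pseudocounts, filters and scalings, a replicate block, Xist and Pou5f1 as covariates, array weights, libraries with at most 100 FPKM of Clps, and each mouse left out in turn. Replicate numbers did not pair the mice.

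The markers and the 20 gene lists beside them (260 genes) were chosen with earlier results of these data known. From each list, genes named are the called ones with the smallest p, up to 3, and otherwise those with the smallest p given as values; the genes nearest each marker are the top 3 by Pearson's r, with 1 result not reported here. Coordinates are from GENCODE M21 and promoters from RefSeq.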

Additional observations from a re-analysis of the deposited data

Results flagged for a closer look

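Over 48 sets of 5 mice (8 markers, 6 groups), 12 held a mouse whose gap to the nearest of the others took up most of the set's range, where chance gives such a mouse in about 1 in 20 sets of normally distributed values. FPKM are skewed, 5 of the sets lay near 0 and 1 mouse can enter several sets, so the number found cannot be read against that rate. In kidney, Havcr1 stood at 422 FPKM in i4F p53 KO replicate 1, against 0.791 to 19.9 FPKM in the other i4F p53 KO kidneys, and Fgb at 112 FPKM in the same mouse, against 1.48 to 30.6 FPKM. Lcn2 stood at 199 FPKM in i4F Ink4a/Arf KO replicate 3, against 1.67 to 42.7 FPKM in the rest of that group, and Vcam1 at 11.3 FPKM in i4F Ink4a/Arf KO replicate 1, against 2.91 to 4.33 FPKM.

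In pancreas, Lcn2 stood at 18.6 FPKM in i4F Ink4a/Arf KO replicate 1, against 0.738 to 3.71 FPKM in the rest of its group. Among i4F pancreases, Clu stood at 442 FPKM in replicate 5, against 296 to 323 FPKM, and Vcam1 at 4.64 FPKM in replicate 4, against 0.199 to 0.656 FPKM. The remaining 5 were values near the lower limit of the table. In i4F Ink4a/Arf KO replicate 5 Havcr1 was 0.212, Fga 0.0793, Fgb 0.0277 and Fgg 0.237 FPKM, and the other mice of that group were at most 0.0244, 0.0190, 0 and 0 FPKM. In i4F replicate 5 Fga was 0.0609 FPKM and in the other i4F pancreases it was listed at 0.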

How the results depend on the processing

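The number of markers called in kidney stayed at 0 for both comparisons with i4F p53 KO under other pseudocounts, filters, scalings and covariates. It was 6 and 6 with array weights (Lcn2, Spp1, Clu, Fga, Fgb and Fgg). Without the libraries above 100 FPKM of Clps it was 3 (against i4F) and 2 (against i4F Ink4a/Arf KO). That limit left only replicates 1 and 5 of i4F p53 KO. With a mouse left out the number was 0 to 2 in each. All genes called in the comparison with i4F numbered 32, against 1721 with array weights, 62 after scaling, 71 after quantile normalization, 244 with Xist as a covariate, 13 with the 2 groups alone and 4 with Pou5f1 as a covariate. Against i4F Ink4a/Arf KO they numbered 33, and 3321, 67, 150, 313, 5 and 6 under the same alternatives, so that the call of a kidney marker depends on how the libraries are weighted. With the replicate number as a block, 0 markers passed in each kidney comparison and 7 along Pou5f1, with 17 genes called between i4F p53 KO and i4F, and 4 in each pancreas comparison with the libraries labelled p53 KO; no marker count changed. In pancreas the marker count was 2 after scaling and 7 without the filter in both of those comparisons. Along Pou5f1 it was 1 without the 2 kidneys farthest from the median, 1 over the 10 kidneys with intact Trp53 and 5 to 7 with a mouse left out.

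None of the estimates that changed sign had passed the threshold. With Pou5f1 as a covariate, added after seeing the data, i4F p53 KO over i4F was -1.11 for Havcr1, -0.10 for Clu and -0.062 for Vcam1. Under it i4F p53 KO over i4F Ink4a/Arf KO was -1.54 for Havcr1, -0.067 for Lcn2 and -0.043 for Vcam1, and i4F Ink4a/Arf KO over i4F was -0.17 for Clu, -0.0198 for Vcam1 and -0.00906 for Fgb. Also for i4F Ink4a/Arf KO over i4F in kidney, array weights gave -0.14 for Vcam1 and -0.29 for Fgb, and quantile normalization -0.0032 for Vcam1. Vcam1 was -0.11 for i4F p53 KO over i4F Ink4a/Arf KO without the libraries above 100 FPKM of Clps, and its slope was -0.036 without the farthest kidneys. For i4F Ink4a/Arf KO over i4F in pancreas, Xist as a covariate gave 0.018 for Spp1 and 0.29 for Vcam1, and array weights 0.068 for Vcam1. With a mouse left out, kidney Vcam1 ran from -0.058 to 0.36 (i4F p53 KO over i4F), -0.28 to 0.14 (i4F Ink4a/Arf KO over i4F) and -0.073 to 0.38 (i4F p53 KO over i4F Ink4a/Arf KO). Havcr1 ran from -0.80 to 1.38 in the last of these, and Fgb from -0.081 to 0.59 and Clu from -0.15 to 0.44 for i4F Ink4a/Arf KO over i4F. In pancreas that comparison gave -0.27 to 0.60 for Lcn2 and -0.42 to 0.15 for Vcam1. The cause was not tested for any of these.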

Other observations

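Other gene groups varied along Pou5f1 across the 15 kidneys by the same limma slope. Of all 12430 genes 13.7% rose, or 4.3% with genotype as a term, and 540 fell. All 3 of the other cassette genes tested rose, Myc with a slope of 0.84, Sox2 with 0.68 and Klf4 with 0.51. The same cassette encodes them and Pou5f1, so their rise is not a separate observation. Of 14 NF-kB response genes 7 rose, with slopes of 0.33 for Nfkb2, 0.32 for the apoptosis inhibitor Birc3 and 0.18 for Rela, and 3 rose with genotype as a term. Of 8 fibroblast markers 3 rose, the smooth muscle actin gene Acta2 with a slope of 0.56 and the collagen genes Col3a1 with 0.49 and Col1a1 with 0.44, and 2 did with genotype as a term. Of 6 duct epithelial genes 3 rose, Krt19 with a slope of 0.82, Muc1 with 0.39 and Krt7 with 0.28, and 2 did with genotype as a term. Of 12 distal nephron and collecting duct markers 1 fell, the calcium-binding protein gene Calb1 with a slope of -0.55, which did not pass with genotype as a term (limma adjusted p = 0.0724). None of the 5 podocyte markers passed in limma, and Synpo had a slope of 0.12 (limma adjusted p = 0.133).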
